A study of Mus musculus with 2 samples.

Results

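Cholesterol synthesis and sebaceous lipid production were followed through 33 mouse genes, listed by name, that were compared between back skin after FGF18 and after saline. The list holds 17 enzymes of sterol synthesis, 5 genes around its regulator SREBP, and 11 sebaceous lipid genes, which cover desaturases, wax and ester enzymes and a sebocyte receptor. A transcript cluster (the set of probes that reads a gene on the array) with a single gene symbol was found for 30 of the 33, out of 22180 such genes in all. Idi1 and Scd2 share their clusters with another symbol and Soat1 had no named cluster, so these 3 are outside the main values. A level filter, set at the median over genes of the mean of both arrays (an intensity of about 16.7), was met by 28 of the 30 genes and not by Awat2 and Dgat2l6.

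Both samples were skin of BALB/cAJcl males aged 7 weeks, with 1 array each. For the FGF18 sample the design text describes hair removal to start follicle growth, an intraperitoneal dose of 100 µg FGF18 with heparin (5 µg/µl) 6 days later, whole-body γ-irradiation at 6 Gy another 24 h on, and skin removal 4 h after irradiation. The other sample is labelled as a saline control, and whether it received heparin or radiation, whether and when its hair was removed, or how many animals stand behind either sample, is not given in the sources used here. FGF18, heparin, radiation, hair removal and its timing, and animal therefore cannot be told apart in any difference below. Each gene has 1 value per sample, so there was no test and no replicate error. Each difference is the FGF18 value less the saline value after taking log2(intensity + 1). Folds come from the same scale and are understated for dim genes. The only available gauge of error was the disagreement between clusters of the same gene, whose standard deviation was 0.24 over 319 genes. It leaves out variation between animals. Skin is a mixture, so fewer cells of a type and less RNA per cell cannot be told apart.

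Cholesterol is built from acetyl units through mevalonate, farnesyl diphosphate, squalene and lanosterol. When sterols run low, the escort protein SCAP carries SREBP to the Golgi for cleavage, and the released factor switches on most enzymes of the route together, usually beside the CCAAT-binding factor NF-Y. In skin, suprabasal keratinocytes use newly made cholesterol for the barrier, while sebaceous glands make wax esters, sterol esters and triglycerides from fatty acids that desaturases and elongases have shaped.

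The promoters of the sterol enzymes are shown first because the letters they share can be read without the array values. RefSeq promoter windows on GRCm38.p6, running from 250 bases before to 50 bases after a start site, were matched by symbol for 25 members (32 windows), among them 14 of the 17 sterol enzymes. Of the windows below, that of Hmgcs1 holds the exact sterol element core. Those of Cyp51 and Ebp belong to the enzymes with the largest differences, and that of Awat1 to a sebaceous gene. These windows lie, in that order, at chr13:119690101-119690400 (plus strand), chr5:4104648-4104947 (minus strand), chrX:8193463-8193762 (minus strand) and chrX:100571997-100572296 (plus strand). Each is printed 5′ to 3′ along the gene. Capitals mark matches to CCAAT, on either strand, and to the sterol response element core TCACNCCAC.
Hmgcs1: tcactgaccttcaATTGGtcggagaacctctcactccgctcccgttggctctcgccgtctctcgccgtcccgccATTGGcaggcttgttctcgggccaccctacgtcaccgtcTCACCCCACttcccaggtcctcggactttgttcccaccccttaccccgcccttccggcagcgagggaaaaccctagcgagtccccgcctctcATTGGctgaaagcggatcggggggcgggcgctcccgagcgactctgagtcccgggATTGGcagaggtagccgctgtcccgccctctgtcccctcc
Cyp51: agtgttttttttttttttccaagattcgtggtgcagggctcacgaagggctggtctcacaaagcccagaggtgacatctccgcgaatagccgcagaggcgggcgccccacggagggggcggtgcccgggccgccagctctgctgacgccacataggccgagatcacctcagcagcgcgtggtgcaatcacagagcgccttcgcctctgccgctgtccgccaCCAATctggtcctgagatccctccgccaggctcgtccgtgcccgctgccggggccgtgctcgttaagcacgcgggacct
Ebp: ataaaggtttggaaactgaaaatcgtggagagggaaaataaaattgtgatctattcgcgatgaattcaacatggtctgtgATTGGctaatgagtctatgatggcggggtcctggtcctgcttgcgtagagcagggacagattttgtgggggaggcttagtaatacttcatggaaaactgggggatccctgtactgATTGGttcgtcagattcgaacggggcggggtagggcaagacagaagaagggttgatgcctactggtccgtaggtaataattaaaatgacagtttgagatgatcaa
Awat1: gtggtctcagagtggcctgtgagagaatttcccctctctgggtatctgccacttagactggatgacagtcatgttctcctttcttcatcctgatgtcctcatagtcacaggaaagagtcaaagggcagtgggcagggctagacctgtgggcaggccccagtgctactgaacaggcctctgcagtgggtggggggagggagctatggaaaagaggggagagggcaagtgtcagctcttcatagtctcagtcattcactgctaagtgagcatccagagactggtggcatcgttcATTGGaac

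All 14 sterol enzyme genes with a window had CCAAT on either strand in at least 1 window (14 of their 17 windows), against 37.4% of all 32851 windows and 41.1% of all genes in the table. Among the 22721 windows whose GC content lay in the range of the sterol enzymes (45.3% to 71.0%), 38.0% held it. In Cyp51 the match began 29 bases before the start site, in Ebp at 170 and 55 bases before it, and in Awat1 at 42 bases after it. CCAAT was also found for 3 of 4 SREBP control genes (not Scap) and for 4 of 7 sebaceous genes (not Dgat2l6, Far2 and Scd3). Of these 4 sebaceous genes, Far1, Soat1 and Awat2 held it before the start site, unlike Awat1. The GC box GGGCGG was present for 13 of the 14 sterol enzymes (not Pmvk), 4 of 4 control genes and 4 of 7 sebaceous genes. It was present for 38.2% of all genes, in 35.7% of all windows and in 40.3% of the windows in that GC range. The sterol enzyme windows had a median GC content of 61.3%, against 52.7% over all windows. The GC range used above takes in most of all windows, so it does not match them on GC content. The part of GC content in these shares was not tested. The exact letters of the sterol response element core, which SREBP is known to bind, occurred only in Hmgcs1 among the 25 members with a window. They began 137 bases before the start site there, and were in 1.24% of all windows and 1.44% of all genes. Elements that differ from these letters were not searched for, so the other members are not shown to lack an SREBP site. The E-box CACGTG occurred for 3 of the 14 sterol enzymes, 2 of the 4 control genes and none of the 7 sebaceous genes. It occurred for 8.09% of all genes and in 7.15% of windows. No matches to different motifs overlapped in these windows. A match describes letters in the window and not a bound site.

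Across the sterol route, transcripts were mostly lower on the FGF18 array, and the size of the difference varied along the route. Of the 16 measured enzymes, all of which met the level filter, 15 were lower and 1 was higher, whereas 38.0% of all 11090 genes at that level were lower and 59.4% higher. The median difference was -0.23, beside 0.07 over those 11090 genes. By more than the disagreement between clusters, 8 of the 16 were lower and none was higher, against 15.3% and 26.2% of all genes. At least 1.5-fold lower were 3 of the 16 (Sqle, Cyp51 and Ebp), against 4.63% of all genes, and none was 1.5-fold higher, against 3.64%. The summed intensity of the 16 enzymes was 1669 in saline and 1334 after FGF18.

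**Figure D1:**
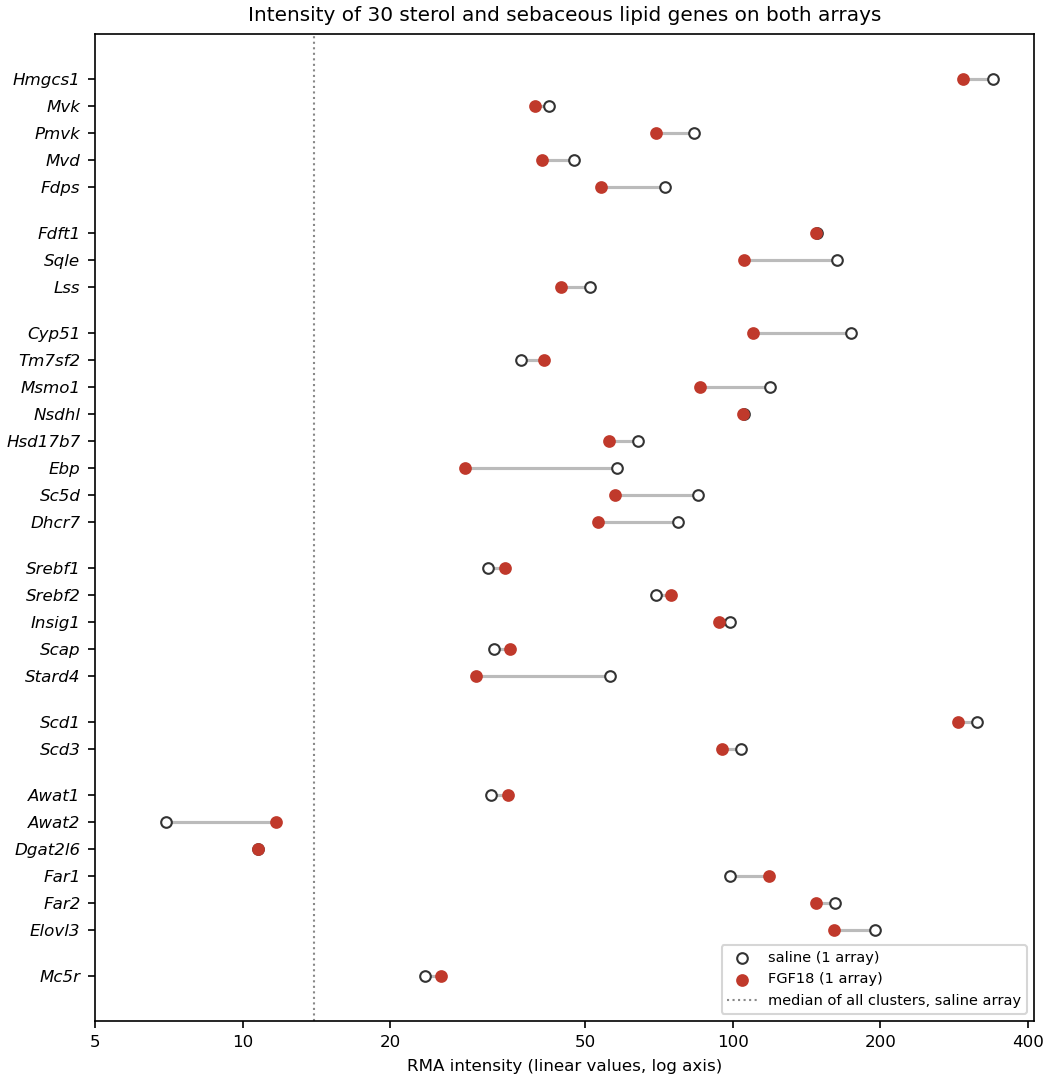
RMA intensity of the 30 measured genes on a log axis, with saline as open circles, FGF18 as filled circles (1 array each) and genes grouped by role from the mevalonate steps at the top to the receptor Mc5r at the bottom. Ebp (58.0 to 28.5) and Stard4 (56.3 to 29.9) show the widest gaps among genes above the dotted median line, while Awat2 and Dgat2l6 lie below it.

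The mevalonate steps, which turn acetyl units into farnesyl diphosphate, were lower without exception but by little. Hmgcs1, the synthase at the entry, read 340 in saline and 295 after FGF18 (difference -0.20). Mevalonate kinase Mvk read 42.1 and 39.5 (-0.09), phosphomevalonate kinase Pmvk 83.5 and 69.8 (-0.26) and the decarboxylase Mvd 47.5 and 40.8 (-0.21). The farnesyl diphosphate synthase gene Fdps stood furthest from saline, at 72.9 and 53.7 (difference -0.43, 1.35-fold lower). Only Pmvk and Fdps exceeded the disagreement between clusters, and the median of the 5 genes was -0.21. Idi1, the isomerase between Mvd and Fdps, read 92.9 and 87.7 on the cluster it shares with Gm13502.

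At the squalene steps the difference lay in a single gene. Sqle, the squalene epoxidase that is a rate-controlling enzyme of the pathway, read 164 in saline but 105 after FGF18, 1.55-fold lower (difference -0.63). The squalene synthase Fdft1 just before it was nearly equal, at 149 and 148. Lanosterol synthase Lss, just after it, read 51.2 and 44.7 (-0.19), within the disagreement between clusters.

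The steps after lanosterol held the largest differences of the route. Over 8 genes the median was -0.50, with 7 lower and 5 of them beyond the disagreement between clusters. Ebp, the isomerase that moves a double bond of the sterol ring, read 58.0 in saline but 28.5 after FGF18, 2.00-fold lower. It alone among the 30 genes reached 2-fold, as did 1.65% of all genes at the level on the lower side, and 1.64% of all genes had a lower difference than Ebp. With a pseudocount of 16 its difference was -0.74. Cyp51, the lanosterol demethylase, read 174 and 110, which is 1.58-fold lower (-0.66). The sterol desaturase gene Sc5d read 84.8 and 57.5 (-0.55) and Dhcr7, the reductase that completes cholesterol, 77.4 and 53.2 (-0.53), so these genes that act just after Ebp were close to 1.5-fold lower. Msmo1, the oxidase that starts removal of the methyl pair left on the ring after Cyp51 has acted, read 119 and 85.9 (-0.47).

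Other genes of the same segment did not share this size. Nsdhl, which works with Msmo1, was nearly equal at 106 and 105, and Hsd17b7, the reductase of that complex, read 64.1 and 55.8 (-0.20). Tm7sf2, a sterol reductase, was the only one of the 16 listed enzymes that was higher, at 36.9 and 41.2 (0.16, within the disagreement between clusters). Lbr, the nuclear membrane protein that carries out the same reduction as Tm7sf2 and is outside the 33 genes, was likewise higher, at 109 and 143 (0.38).

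**Figure D2:**
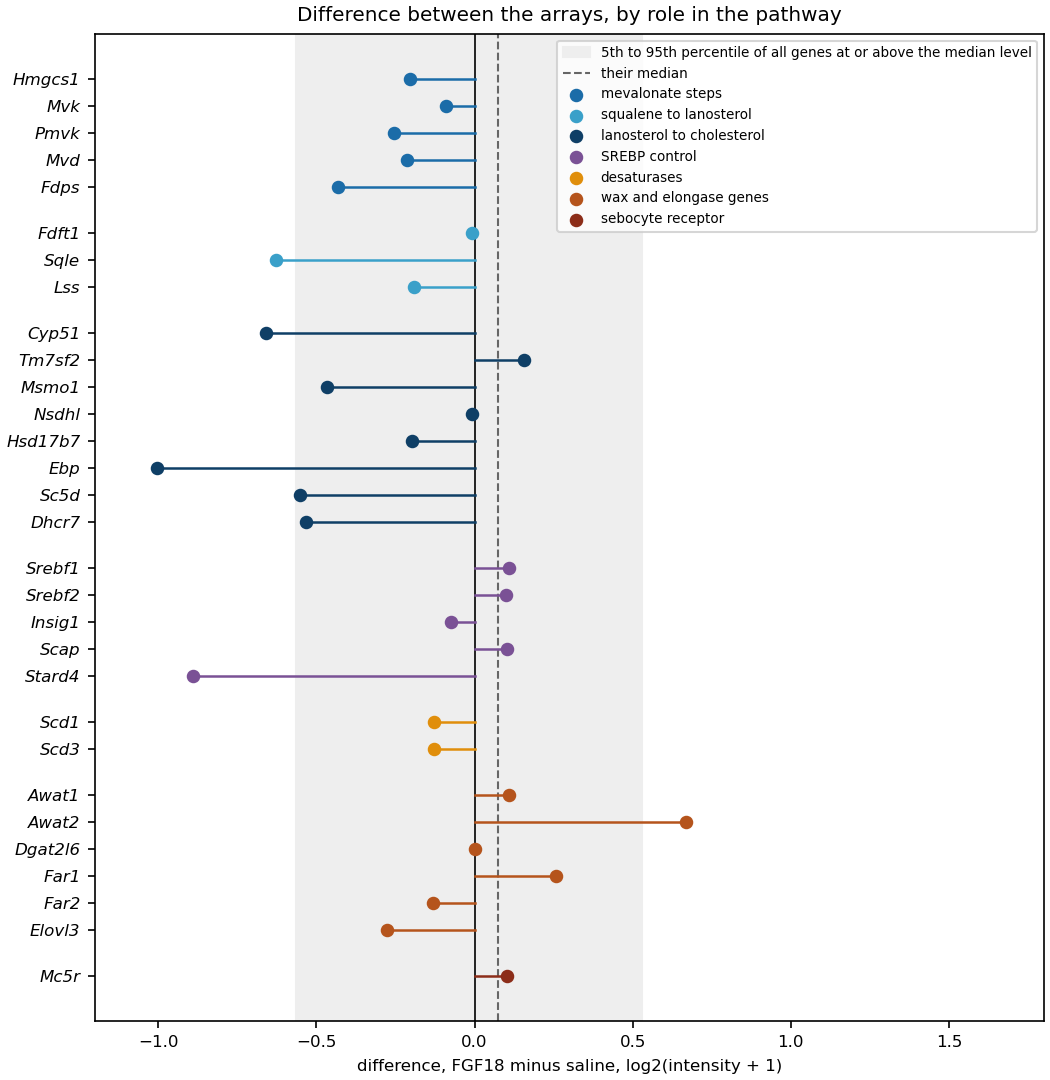
Difference between the arrays for each of the 30 measured genes, in log2 units, coloured by role, with the 5th to 95th percentile of the 11090 genes at or above the median level in grey (-0.57 to 0.53) and their median dashed (0.07). Sqle, Cyp51, Ebp and Stard4 lie to the left of the grey band, and Awat2, which is below the median level, to its right.

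Of the 5 SREBP control genes in the list, only a sterol carrier differed by more than the disagreement between clusters. Outside the 33 genes, Insig2 (-0.55) and Erlin1 (-0.48) were lower and Ubxn8 (0.32) was higher by more than that, as described below. Srebf2, which encodes the SREBP form that drives sterol genes, read 69.7 in saline and 74.8 after FGF18 (0.10), and Srebf1, whose forms favour fatty acid genes, 31.7 and 34.3 (0.11). After subtraction of the intensity trend, Srebf2 stood at -0.005. Scap read 32.6 and 35.1 as the mean of its 2 clusters (0.10), which disagreed, at 0.29 and -0.09. Insig1, a retention protein of SCAP and itself a target of SREBP, read 98.7 and 93.7 (-0.07). These 4 genes lay within the disagreement between clusters. Stard4, a cytosolic sterol carrier gene that sterol depletion switches on, read 56.3 and 29.9, which is 1.85-fold lower (-0.89), and 2.19% of all genes had a lower difference. The mean of the 5 genes, Stard4 included, was -0.13, while their median was 0.10.

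Sebaceous lipid genes did not lie on a common side. Of 9 measured genes 4 were higher, 4 lower and 1 equal. Of the 7 that met the level filter 3 were higher and 4 lower, against 59.4% and 38.0% of all genes. None was 1.5-fold lower or higher, against 4.63% and 3.64% of all genes, so a count of 0 among 7 does not set them apart. The median was 0.00 over 9 genes and -0.13 over those 7, so its place against 0 depends on the dim genes Awat2 and Dgat2l6. The sterol enzymes overlapped with them, in that 7 of 16 sterol enzymes had a lower difference than Elovl3, the lowest sebaceous gene, and the other 9 did not.

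Scd1, the main stearoyl-CoA desaturase of sebocytes and fat cells, read 314 in saline and 288 after FGF18 (-0.13). Scd3, a desaturase of sebaceous glands, read 104 and 95.2 (-0.13). Scd2 read 274 and 298 (0.12) on the cluster it shares with the microRNA gene Mir5114. All were within the disagreement between clusters. These desaturases are close paralogs, and whether their clusters read each other's transcripts was not tested.

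Among the enzymes that build waxes, Far1 and Far2, which reduce fatty acyl-CoA to the alcohols of wax esters, stood on different sides. Far1 read 98.8 and 118 (0.26), just beyond the disagreement between clusters, and Far2 162 and 148 (-0.13), within it. The wax synthase gene Awat1 read 32.2 and 34.8 (0.11). Its relatives were dim. Awat2 read 6.98 and 11.7 and Dgat2l6 10.7 on both arrays, below the median of either array, so no fold is given. Elovl3, an elongase of sebaceous and fat cells, read 195 and 161 (-0.28), just beyond the disagreement between clusters. Mc5r, the melanocortin receptor that promotes sebum secretion, read 23.6 and 25.4 (0.10).

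Markers of the sebaceous gland that are outside the 33 genes were mixed as well. Of 11 measured, 4 were higher, 6 lower and 1 equal, with a median difference of 0.00. After centring on the median of all genes 9 of the 11 were lower, and after trend subtraction 7. Their summed intensities were 676 in saline and 602 after FGF18, and the values of Acsbg1 alone differed by more than these sums. Krt79, a keratin of sebaceous ducts, was at 176 on both arrays, and Pparg, the nuclear receptor of sebocyte and fat cell maturation, read 20.4 and 19.4 (-0.06). Plin2, which coats lipid droplets, read 50.5 and 69.8 (0.46). Acsbg1, an acyl-CoA synthetase gene, was lowest at 176 and 99.7 (-0.81). It was the only 1 of the 8 markers at the level that was 1.5-fold lower, against 4.63% of all genes, and none was 1.5-fold higher, against 3.64%. Gata6 and Muc1 were below the median on both arrays.

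Markers of suprabasal epidermis differed far more, and in the same direction as the sterol enzymes. All 12 were lower and at least 1.5-fold so, against 38.0% and 4.63% of all genes at the level. Their median was -1.75, from Lor at -0.95 to Krt1 at -2.96. Their summed intensity was 17736 in saline and 4960 after FGF18. The summed intensity after FGF18 was 79.9% of saline for the 16 sterol enzymes and 94.2% for the 9 sebaceous lipid genes. Inner root sheath markers were on the opposite side, with 8 of 8 higher, a median of 0.98 and Krt25 and Krt28 at 0.85 and 1.16. Hair shaft markers had 9 of 10 higher and a median of 0.50, from Krt81 at -0.47 to Krt31 at 1.22. Fat cell markers had 5 of 10 higher and a median of -0.04, from Retn at -0.55 to Plin4 at 1.02, with summed intensities of 661 and 872. Macrophage markers had 7 of 8 higher and a median of 0.36, with Csf1r at 0.04 and Lyz2 at 0.57, and muscle markers 3 of 8 higher and a median of -0.14, from Casq1 at -1.14 to Myh1 at 0.36. Of all genes at the level, 59.4% were higher, so a majority on that side does not by itself set a marker list apart. The part of these shifts in cell markers in the sterol difference was not tested.

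**Figure D3:**
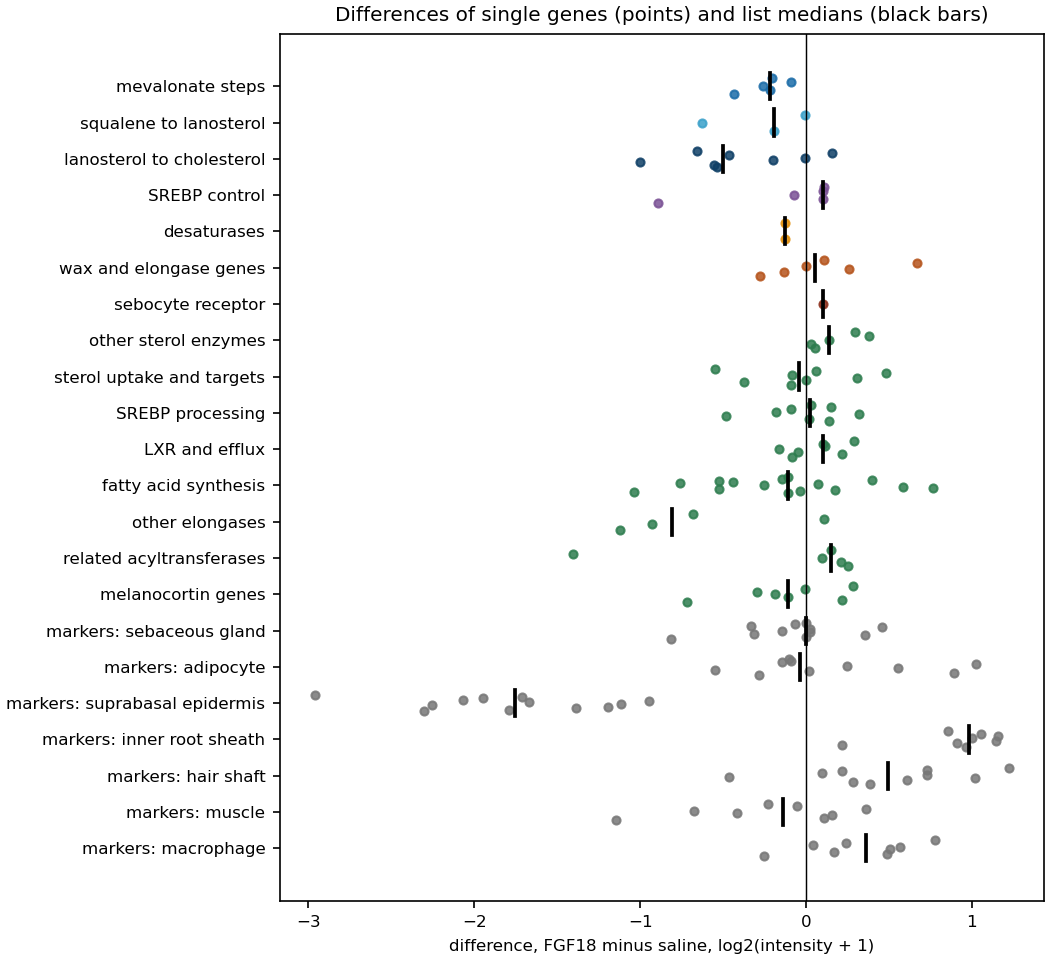
Difference between the arrays in log2 units for each gene (points) of the 7 role groups, 8 further pathway lists and 7 marker lists, with the median of each list as a black bar. The medians of the 3 sterol groups lie to the left of 0 (-0.21, -0.19 and -0.50), those of the wax and receptor genes just to its right, and that of the suprabasal markers furthest to the left (-1.75).

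Neighbouring parts of lipid metabolism gave mixed counts, beside 59.4% of all genes at the level that were higher and 38.0% that were lower. The 5 further measured genes on or beside the sterol route were Acat1, Lbr, Ggps1, Idi2 and Erg28. Idi2 was below the median on both arrays. All 5 were higher, with a median of 0.14 and the lowest of those at the level, Erg28, at 0.06. This direction depends on the scaling, since 2 of the 5 were lower after centring on the median of all genes and 1 of the 5 after trend subtraction. Sterol uptake and target genes had 4 of 8 lower, from Insig2, a relative of Insig1, at -0.55 (48.4 and 32.7) to the lysosomal cholesterol exporter Npc1 at 0.48. The SREBP processing list had 3 of 8 lower (5 of 8 after centring), from Erlin1, a membrane protein of the endoplasmic reticulum, at -0.48 to Ubxn8 at 0.32. The list of liver X receptor and efflux genes had 3 of 7 lower, and the 6 that met the filter ran from Abcg1 at -0.16 to Apoe at 0.22. None of these 4 lists had a gene at least 1.5-fold different among those that met the filter (4, 8, 8 and 6 genes). Of all genes, 4.63% were lower and 3.64% higher by that fold, so a count of 0 does not set these lists apart. In the uptake and target list, however, 6 of 8 were lower and 1 was 1.5-fold lower after centring, and 1 was 1.5-fold higher when the brightest cluster stood for each gene.

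Fatty acid genes lay on both sides. Of 15 genes of fatty acid synthesis and neighbouring lipid steps, 10 were lower and 5 higher, against 38.0% and 59.4% of all genes. Their median difference was -0.11. At least 1.5-fold lower were 2 of the 15 and at least 1.5-fold higher 2 of the 15, against 4.63% and 3.64% of all genes. That even split depends on the scaling, since after centring, as after trend subtraction, 4 were lower and 1 was higher by that fold. Thrsp, a lipogenic regulator, read 30.2 and 14.2 (-1.04), so that it met the level filter through its saline value alone, and Me1, which supplies NADPH, 168 and 99.0 (-0.76). The polyunsaturated fatty acid desaturase genes Fads2 and Fads1 were higher, at 37.1 and 63.7 (0.77) and at 42.4 and 64.1 (0.59). Fasn, the fatty acid synthase, read 143 and 132 (-0.11), and Acly, which makes cytosolic acetyl-CoA for fatty acids and sterols alike, 208 and 144 (-0.52).

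Relatives of the sebaceous enzymes included genes with larger differences. Of 4 elongases beside Elovl3, 3 were at least 1.5-fold lower, against 4.63% of all genes, and 1 was 2-fold lower. With a pseudocount of 16 the number past 1.5-fold was 2. Elovl7 read 195 in saline and 89.0 after FGF18 (2.18-fold lower), Elovl4, which makes the very long chains of barrier ceramides, 682 and 358 (1.90-fold lower), and Elovl1 60.9 and 37.5 (1.61-fold lower), while Elovl2 was higher by 0.11. Dgat2, a triglyceride synthase of the family of Awat1, Awat2 and Dgat2l6, read 154 and 57.3, which is 2.65-fold lower (-1.41), and 0.794% of all genes had a lower difference. Dgat1, the unrelated enzyme of the same reaction, read 20.4 and 22.8 (0.15). Mogat1, Mogat2 and Scd4 were below the median on both arrays. Among melanocortin genes, 5 of 7 were below the median on both arrays. Mc1r, the receptor of pigment cells, read 25.5 and 31.2 (0.28), while Pomc, the gene of the hormone precursor, read lower after FGF18 (-0.71) but met the level filter through its saline value alone, since its 14.9 after FGF18 is under the level, and it was not 1.5-fold lower with a pseudocount of 16.

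The larger differences kept their direction under other ways of computing them. Over 6 such settings, Cyp51, Ebp and Stard4 stayed at least 1.5-fold lower throughout, Sqle was at -0.56 with a pseudocount of 16 and past 1.5-fold otherwise, and Sc5d and Dhcr7 passed 1.5-fold after centring on the median or subtraction of the intensity trend. The number of sterol enzymes lower was 15 of 16 in each setting, and 16 of 17 where Idi1 was included.

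**Figure D4:**
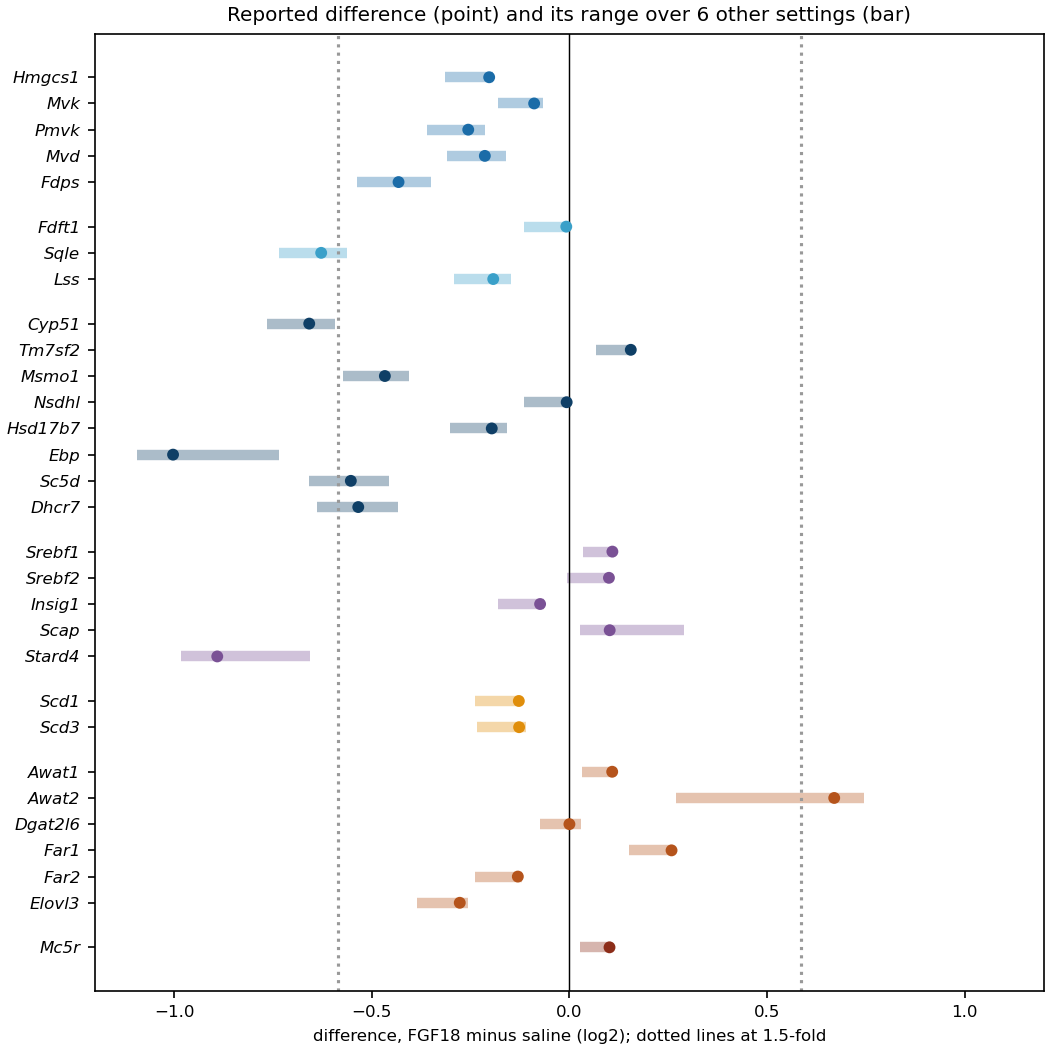
Reported difference of each measured gene in log2 units (point) with its range over the reported and 6 other settings (bar), and dotted lines at 1.5-fold. The bars of Cyp51, Ebp and Stard4 lie wholly beyond the left line, and those of Srebf2 and Dgat2l6 cross 0.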

How the data were processed

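Total RNA of 2 skin samples was measured on 1 Affymetrix Mouse Gene 2.0 ST array each, grouped by the source label. Trizol extraction and biotin labelling were used, per the labels' protocols. Per the submitters' processing notes, Affymetrix Expression Console and RMA were used, and the sources used here give neither their versions nor a genome build. What the authors deposited are linear RMA intensities, since the values run from 1.39 to 11532. Arrays have no read depth, and their number limits the precision.

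The table holds 41345 clusters, of which 23521 have 1 symbol, 1814 several and 16010 none in the platform annotation. Clusters of a symbol were averaged as log2(intensity + 1). All 31 member clusters matched the gene table (GRCm38.p6) by Entrez identifier. A gene was called where the arrays differed at least 1.5-fold and its mean log2 value reached the median, 4.15. Python 3.11.15, pandas 2.3.3 and statsmodels 0.14.6 were used, and the steps were tested on a table with known folds. Motifs were searched on both strands. The error gauge pools cluster differences around their gene's mean.

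Members and lists were chosen with earlier results of these data known. Named genes are all members, the highest and lowest of each other list at the level, and Fasn, Pparg and Krt79. Some genes that the rule also names are not reported here. Acat1, Ggps1, Idi2, Me1, Acly, Fads1, Elovl4, Elovl1, Gata6, Muc1, Mogat1, Mogat2 and Scd4 were named after their values were seen. Alternatives were no filter or the 75th percentile, a 2-fold threshold, a pseudocount of 16 or none, centring, loess (span 0.3), the brightest cluster, clusters with several symbols, means, members at the level, and leaving out the farthest member.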

Additional observations from a re-analysis of the deposited data

How the results depend on the processing

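Over 179 comparisons of list medians and 180 of single genes with the alternatives, all list medians and 178 of the gene values moved by less than the disagreement between clusters, and the exceptions were Ebp (-0.74) and Awat2 (0.27) with a pseudocount of 16. Many of these comparisons could not have moved that far, so the tally is no measure of robustness. Centring shifts every gene by the same 0.07, and the brightest cluster can change only the 1 member with more than 1 cluster. Taking in clusters with several symbols left every measured member as it was. The median of the sterol enzymes ran from -0.34 after trend subtraction to -0.20 with a pseudocount of 16. The number of sterol enzymes at least 1.5-fold lower was 5 after centring on the median and 5 after trend subtraction, and 1 at 2-fold, where the number over all members was also 1. With no filter, 1 sebaceous gene, and so 1 of all members, was at least 1.5-fold higher (Awat2). The sebaceous median ran from -0.13 over genes at the level to 0.05 as a mean, and the SREBP control group from -0.13 as a mean to 0.10. Srebf2, the median gene of that group, and Dgat2l6 changed sign between settings. With a pseudocount of 16, 2.71% of all genes were 1.5-fold lower, and after centring 5.95%. Leaving out a replicate was not possible with 1 array per group, which also limits every value here: no spread between animals is known, and dim genes have no detection call.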
